A study of Saccharomyces cerevisiae with 21 samples.

Results

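In budding yeast, Saccharomyces cerevisiae, the transcript response to ISP1 was set against itself under a pair of stresses, the fatty acid myristate and heat. The design text of the series identifies ISP1 as myriocin, which blocks serine palmitoyltransferase, the enzyme of the first step of sphingolipid synthesis. By sample title, 12 of the 21 Affymetrix arrays of the series entered this comparison, in 4 groups of 3. The first pair of groups was grown in synthetic complete medium (SC) with myristate and ISP1 (SC+myristate+ISP1) or with myristate alone (SC Myristate). The second pair was grown in YPD, a glucose-based rich medium, with heat and ISP1 (YPD+Heat+ISP1) or heat alone (YPD Heat). The labels give 45 min for heat, for myristate and for heat with ISP1, no time for myristate with ISP1, and no temperature, dose, vehicle or strain. The descriptions of replicates 2 and 3 of SC+myristate+ISP1 name ISP2 and ISP3 where the titles have ISP1, and the titles were followed. Every myristate culture was in SC and every heat culture in YPD, so stress and medium cannot be told apart. By sample title, no group of the series had ISP1 in SC without myristate. Whether the 3 replicates of a group came from different cultures is not given, so every p-value is set against array-to-array spread that may be technical.

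Serine palmitoyltransferase, built on Lcb1 and Lcb2, joins serine to a fatty acyl-CoA to make long-chain bases, which become ceramides and the inositol-containing sphingolipids of the plasma membrane. Heat is known to raise long-chain bases and ceramides in yeast for a time, and myristate is a saturated acyl chain that can enter this pathway and also feed peroxisomal beta-oxidation. The Orm proteins restrain the enzyme, the Ypk kinases relieve that restraint, and Rsb1 and ATP-driven pumps move bases and drugs at the membrane.

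On each array the level of a gene is its log2 signal, and an ISP1 difference is the mean of the 3 arrays with ISP1 minus the mean of the 3 arrays without it under the same stress. Each array measures a whole culture, so fewer cells that express a gene and less RNA per cell cannot be told apart. Differences are given ± standard error, and a gene is said to be called where limma's p-value, adjusted by the Benjamini-Hochberg method over all 5449 genes, was under 0.05. Replicates of the 4 groups correlated across genes with r between 0.993 and 0.998. The heat marker SSA4, an Hsp70 chaperone, averaged 14.95 in both heat groups, against 12.42 in SC+myristate+ISP1 and 12.38 in SC Myristate. POX1, the acyl-CoA oxidase of beta-oxidation, averaged 8.67 in SC+myristate+ISP1, 8.38 in SC Myristate, 7.56 in YPD+Heat+ISP1 and 6.87 in YPD Heat, beside 5.10 in the SC control. Control probe sets at the transcript ends differed between the media for SRB4 and ACT1, and less between the heat groups. The SRB4 signal at the 3 prime end minus that at the 5 prime end averaged 1.83 in SC+myristate+ISP1, 1.84 in SC Myristate, 2.72 in YPD+Heat+ISP1 and 3.01 in YPD Heat (log2). For SPT15, which did not separate the media, the averages were 2.19, 2.17, 2.19 and 2.30 in the same order. The poly-A control probe sets averaged 6.99, 6.88, 8.19 and 7.85. Their part in the results was not tested.

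With myristate in SC, ISP1 left nearly every transcript near its level without the drug. A single gene, VHR1, was called, which is 0.0184% of those tested. No gene differed by 1 or more on the log2 scale, and the differences ran between -0.59 and 0.59, the last for BAG7, a GTPase-activating protein for Rho1. Without adjustment 349 genes had a p under 0.05 by limma, 6.4% of all. The 95% interval of the difference lay within 1 log2 unit on either side of 0 for 99.94% of genes, and within 0.5 for 93.43%. A difference of 2-fold was thus outside the interval for almost every gene, while a difference under 0.5 was not always detectable with 3 arrays per group.

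VHR1, a transcription factor of biotin-related genes, read 9.69, 9.78 and 9.85 in SC+myristate+ISP1, against 9.30, 9.21 and 9.38 in SC Myristate. It read 11.10, 11.32 and 11.37 in YPD+Heat+ISP1, against 9.93, 9.67 and 9.74 in YPD Heat. All arrays with ISP1 lay above those without it under each stress, and the shift was larger under heat. The ISP1 difference was 0.48 ± 0.08 under myristate (limma adjusted p = 0.0363) and 1.49 ± 0.08 under heat. The call under myristate was not held when 1 array was left out: the adjusted p was over 0.05 without YPD Heat replicate 3 (0.0643), SC Myristate replicate 1 (0.118), 2 (0.134) or 3 (0.0616), YPD+Heat+ISP1 replicate 2 (0.0567), or SC+myristate+ISP1 replicate 2 (0.274) or 3 (0.21). It was 0.329 with the replicate number as a block, a fit of the 12 arrays in which arrays of the same replicate number share a term.

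With heat in YPD, ISP1 changed 1784 genes, 32.7% of all, of which 898 rose (16.5%) and 886 fell (16.3%). Of these, 56 rose and 22 fell by at least 2-fold. The SD of the ISP1 difference across genes was 0.105 under myristate and 0.311 under heat, beside 0.588 for ISP1 in YPD without stress, where 3331 genes were called (61.1%; 27.9% of all genes higher and 33.2% lower).

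The ISP1 difference under myristate minus the ISP1 difference under heat, called the contrast below, passed the test for 622 genes, 11.4% of those tested. With the replicate number as a block it passed for 446, of which 414 were among the 622. Without the block, the contrast was positive, or higher, for 330 genes (6.06%) and negative, or lower, for 292 (5.36%). Of the 622, 67 had a size of at least 1 on the log2 scale. The contrast subtracts the heat difference, which varied more across genes, so the sign of the contrast was largely set by the heat difference. Among the 622, 319 had fallen with ISP1 under heat and had a positive value, 282 had risen under heat and had a negative one, VHR1 had risen under both stresses, and 20 were called under neither stress. No gene was called in opposite directions under the pair of stresses, which could hardly be otherwise with only VHR1 called under myristate. Across the 5449 genes the ISP1 difference under myristate correlated with that under heat at r = 0.39 (Spearman's rho = 0.37), a description across genes that share arrays within each comparison and no array between them.

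**Figure D1:**
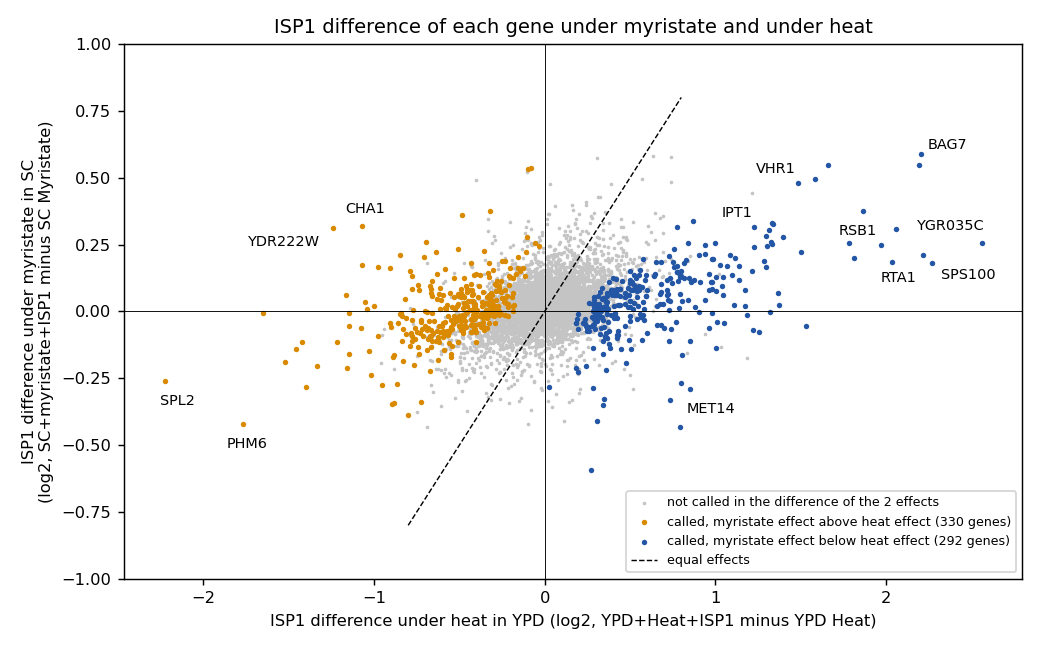
Each point is 1 of 5449 genes, with the ISP1 difference under heat in YPD on the horizontal axis and under myristate in SC on the vertical axis (both log2, with different scales). The 330 and 292 genes called in the difference between the 2 effects spread along the heat axis to -2.23 and 2.56, while on the myristate axis no gene passes 0.59 in size.

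The genes that responded to ISP1 under heat had medians of the same sign under myristate, close to 0. Over all 5449 genes, 3176 had a positive ISP1 difference under myristate, and 61.86% had the same sign under both stresses. The 898 genes that rose under heat had a median ISP1 difference of 0.33 there and 0.06 under myristate, where 699 of them (77.84%) had a positive sign, beside a median of 0.01 under myristate over all genes. The 886 that fell had a median of -0.35 under heat and -0.03 under myristate, where 605 (68.28%) had a negative sign. Within them, the 319 also called in the contrast had a median of -0.01 under myristate, and 53.61% of these had the negative sign. A call in the contrast favours genes that did not fall under myristate, so these values follow in part from the choice. For the 56 genes that rose at least 2-fold under heat, the median was 1.29 under heat and 0.18 under myristate. In 27 of these 56 all 3 arrays of SC+myristate+ISP1 lay above all 3 of SC Myristate, an order found in 8.53% of all genes. Of the 22 genes that fell at least 2-fold under heat, 6 had all 3 arrays of SC+myristate+ISP1 below all 3 of SC Myristate, an order found in 4.44% of all genes.

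Levels with myristate alone were also set against those of the heat groups. The genes were chosen by YPD+Heat+ISP1 against YPD Heat, so their order against each of these groups follows in part from that choice. Over all 5449 genes, SC Myristate had a mean level above that of YPD Heat in 2468, and above that of YPD+Heat+ISP1 in 2363. Of the 56 genes that rose at least 2-fold under heat, the same held in 26 and in 5. Of the 22 that fell at least 2-fold, the mean of SC Myristate was above that of YPD Heat in 11 and above that of YPD+Heat+ISP1 in 16.

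Among membrane and drug resistance genes, ISP1 raised a broad set under heat and left each short of the threshold under myristate, as it did all genes but VHR1. RTA1, a membrane protein of the same family as RSB1, read 8.08, 8.18 and 7.59 in SC+myristate+ISP1, against 7.82, 7.79 and 7.61 in SC Myristate. It read 10.80, 10.84 and 11.001 in YPD+Heat+ISP1, against 8.79, 8.59 and 8.61 in YPD Heat. The myristate groups overlapped, whereas the heat groups stood over 2 log2 units apart in the mean. The ISP1 difference of RTA1 was 0.21 ± 0.14 under myristate and 2.22 ± 0.14 under heat, and their difference was -2.01 ± 0.19 (limma adjusted p = 3.67e-06).

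RSB1, which moves long-chain bases out of the inner face of the plasma membrane, read 9.57, 9.70 and 9.94 in SC+myristate+ISP1, against 9.45, 9.47 and 9.55 in SC Myristate. It read 11.91, 12.15 and 12.07 in YPD+Heat+ISP1, against 10.25, 9.86 and 10.11 in YPD Heat. Its groups did not overlap under either stress, but the gap was narrow under myristate (0.25 ± 0.13) and wide under heat (1.97 ± 0.13). The difference between these effects was -1.72 ± 0.18 (limma adjusted p = 9.26e-06). Of the 4 measured members of the RTA1-like family, these 2 were called lower in the contrast and none higher, beside 5.36% and 6.06% of all genes. The median ISP1 difference of the family was 0.17 under myristate and 1.497 under heat, beside 0.01 and 0.01 over all genes.

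**Figure D2:**
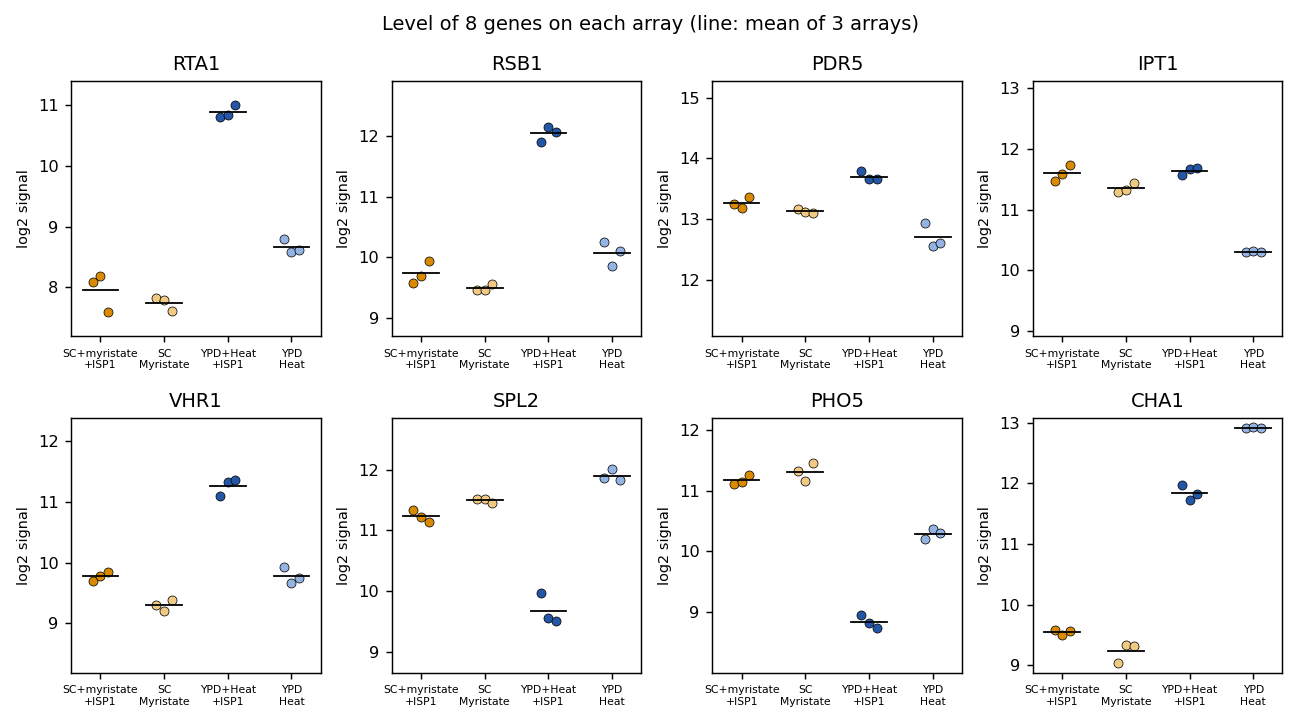
Log2 signal of 8 genes on each of the 12 arrays, with 3 points per group and a line at their mean, in the order SC+myristate+ISP1, SC Myristate, YPD+Heat+ISP1, YPD Heat; all panels span the same range of log2 units. RTA1, RSB1, PDR5, IPT1 and VHR1 stand higher and SPL2, PHO5 and CHA1 lower in YPD+Heat+ISP1 than in YPD Heat, and the SC groups lie close together in every panel.

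Of 13 measured regulators and other targets of the drug response factors Pdr1 and Pdr3, 6 were called lower and none higher in the contrast, beside 5.36% of all genes lower. ICT1, an acyltransferase that makes phosphatidic acid, averaged 10.97 ± 0.15 in SC+myristate+ISP1 and 10.77 ± 0.09 in SC Myristate, against 12.73 ± 0.08 in YPD+Heat+ISP1 and 10.92 ± 0.03 in YPD Heat (SD, n = 3 arrays). Its contrast was -1.61 ± 0.10 (limma adjusted p = 3.22e-08). PDR16, a phosphatidylinositol transfer protein, had an ISP1 difference of 0.08 under myristate and 1.01 under heat. For GRE2, a reductase induced by many stresses, the same differences were 0.02 and 1.11. RTA1 and RSB1 also belong to this list, and the call of the other member was lost on leaving out single arrays.

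Among 18 measured drug pump genes, 6 were called lower in the contrast and 1 higher, beside 5.36% and 6.06% of all genes. The ATP-driven pump genes led the first set. PDR5 read 13.25, 13.18 and 13.37 in SC+myristate+ISP1, against 13.17, 13.12 and 13.11 in SC Myristate. It read 13.79, 13.65 and 13.66 in YPD+Heat+ISP1, against 12.93, 12.56 and 12.61 in YPD Heat. YPD Heat was the lowest of the 4 groups, and ISP1 raised the signal there by 1.00 ± 0.09. The contrast was -0.87 ± 0.13 for PDR5, -1.13 ± 0.22 for PDR15, -0.73 ± 0.16 for SNQ2, -0.66 ± 0.10 for PDR10 and -0.58 ± 0.11 for YOR1. The other call of this list was lost on leaving out single arrays.

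PDR15 had a high level with myristate alone, and the part of this level in its ISP1 difference was not tested. Its mean was 13.28 ± 0.06 in SC+myristate+ISP1 and 13.12 ± 0.07 in SC Myristate, against 13.23 ± 0.04 in YPD+Heat+ISP1 and 11.94 ± 0.22 in YPD Heat (SD, n = 3 arrays), beside 10.96 in the SC control. PDR12, a pump for weak organic acids, went the other way: its ISP1 difference was 0.20 ± 0.15 under myristate and -0.71 ± 0.15 under heat, and the contrast was 0.91 ± 0.21. The polyamine transporter genes TPO1 and TPO4 rose with ISP1 under heat, by 0.45 and 0.57, and had ISP1 differences of 0.35 and 0.50 under myristate, which were not called. Their contrast was not called, with 95% intervals of -0.34 to 0.14 for TPO1 and -0.38 to 0.23 for TPO4.

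**Figure D3:**
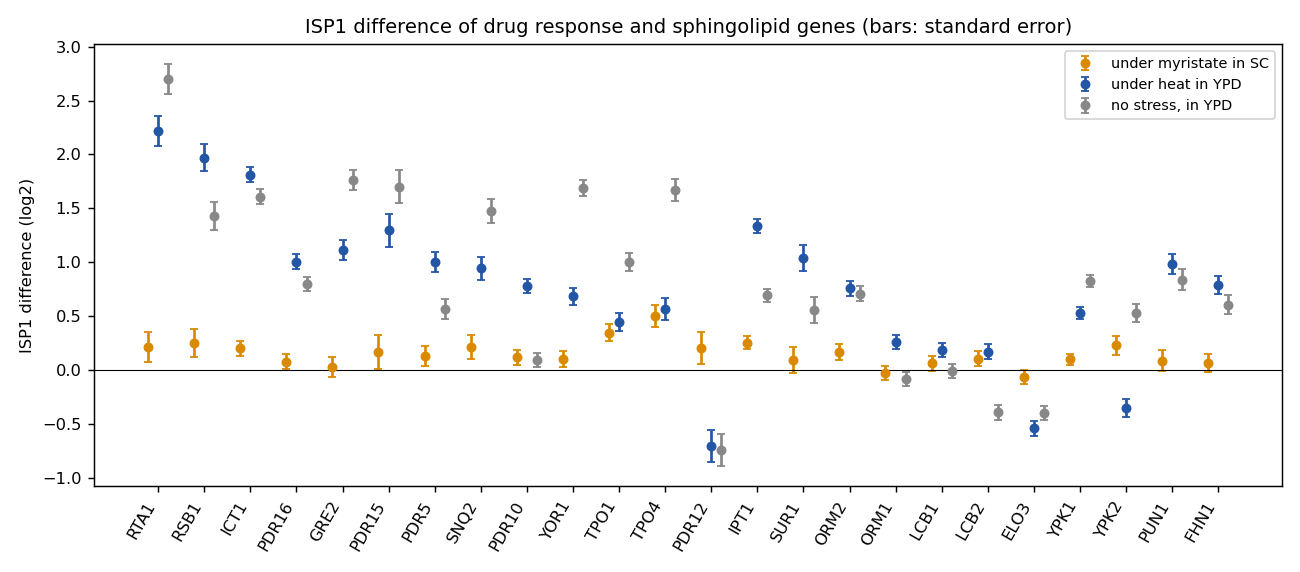
ISP1 difference (log2, with standard error) of 24 genes of drug response, sphingolipid synthesis and Ypk signalling under myristate in SC, under heat in YPD and without stress in YPD. RTA1, RSB1 and ICT1 are above 1.8 under heat and at or below 0.25 under myristate, while TPO4 has 0.50 and 0.57.

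Of 23 measured genes of sphingolipid synthesis and its regulation, 3 were called lower in the contrast and 1 higher, beside 5.36% and 6.06% of all genes, and 19 were not called. The list's median ISP1 difference was 0.03 under myristate and 0.07 under heat, beside 0.01 and 0.01 over all genes. IPT1, which adds the final inositol phosphate head group to complex sphingolipids, read 11.48, 11.60 and 11.74 in SC+myristate+ISP1, against 11.30, 11.32 and 11.44 in SC Myristate. It read 11.57, 11.66 and 11.69 in YPD+Heat+ISP1, against 10.30, 10.32 and 10.30 in YPD Heat. YPD Heat stood apart below the other 3 groups. The contrast of IPT1 was -1.08 ± 0.09 (limma adjusted p = 6.02e-07).

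SUR1, a subunit of the mannosyltransferase one step before Ipt1, had an ISP1 difference of 0.09 under myristate and 1.04 under heat, and a contrast of -0.94 ± 0.17. ORM2, an inhibitor of serine palmitoyltransferase, averaged 11.90 ± 0.05 in SC+myristate+ISP1 and 11.73 ± 0.02 in SC Myristate, against 13.69 ± 0.05 in YPD+Heat+ISP1 and 12.94 ± 0.17 in YPD Heat (SD, n = 3 arrays). Its contrast was -0.59 ± 0.10. For its paralog ORM1 the contrast was -0.29 ± 0.09, with an adjusted p of 0.0509, and it was called without YPD Heat replicate 3 (0.0427) and in 5 other settings, among them median centring (0.0386). The transcripts of the enzyme that ISP1 binds were not called in the contrast: the 95% interval was -0.32 to 0.07 for LCB1 and -0.27 to 0.14 for LCB2. ELO3, which elongates the very long fatty acid of ceramide, was the gene called higher, with an ISP1 difference of -0.07 under myristate and -0.54 under heat.

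Of 18 measured genes of the eisosome, a membrane furrow, and of the Ypk kinases that respond to sphingolipid loss, 3 were called lower and 2 higher in the contrast. Over all genes the shares were 5.36% and 6.06%. The kinase genes YPK1 and YPK2 moved apart. YPK1 rose by 0.53 with ISP1 under heat and YPK2 fell by 0.35. Under myristate their ISP1 differences were 0.10 and 0.23, and the contrasts were -0.43 ± 0.08 for YPK1 and 0.58 ± 0.12 for YPK2. PUN1 and FHN1, tetraspan membrane proteins of the eisosome region, had contrasts of -0.90 ± 0.14 and -0.72 ± 0.12. The other call of this list was lost on leaving out single arrays.

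The phosphate genes moved in the other direction. The phosphate list holds genes of the phosphate regulon, its regulators and PHO3, which is also in the thiamine list. Of its 19 measured members, 12 were called higher in the contrast and 1 lower, beside 6.06% and 5.36% of all genes. With ISP1 under heat 13 of the 19 fell and 1 rose, beside 16.3% and 16.5% of all genes. Under myristate none was called, and VHR1 was the only call among all genes. The median ISP1 difference of the list was -0.06 under myristate and -0.49 under heat. It was -0.74 in YPD without stress, where 14 fell, beside 33.2% of all genes.

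SPL2, which blocks low-affinity phosphate uptake, read 11.33, 11.22 and 11.14 in SC+myristate+ISP1, against 11.51, 11.51 and 11.45 in SC Myristate. It read 9.96, 9.55 and 9.51 in YPD+Heat+ISP1, against 11.86, 12.002 and 11.83 in YPD Heat. The arrays with ISP1 were lower under each stress with no overlap, and the ISP1 difference was -0.26 ± 0.10 under myristate, which was not called, and -2.23 ± 0.10 under heat. The contrast was 1.97 ± 0.14, the largest positive value of all genes (limma adjusted p = 1.32e-07).

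The secreted acid phosphatase gene PHO5 read 11.11, 11.15 and 11.26 in SC+myristate+ISP1, against 11.32, 11.16 and 11.46 in SC Myristate. It read 8.95, 8.81 and 8.74 in YPD+Heat+ISP1, against 10.20, 10.37 and 10.30 in YPD Heat. The myristate groups overlapped and the heat groups did not. Its contrast was 1.31 ± 0.15, beside 1.33 ± 0.11 for the related PHO11, whose probe set can also bind near-identical transcripts, and 1.31 ± 0.15 for PHO3, another acid phosphatase gene. PHM6, a phosphate-controlled gene of no established role, had the largest ISP1 difference of the list under myristate, -0.42 ± 0.11, which was not called, and -1.77 ± 0.11 under heat.

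PHO84, the high-affinity phosphate transporter, averaged 14.17 ± 0.06 in SC+myristate+ISP1 and 14.23 ± 0.01 in SC Myristate, against 12.76 ± 0.07 in YPD+Heat+ISP1 and 13.91 ± 0.19 in YPD Heat (SD, n = 3 arrays). Its level in SC was near the top of the array's range, and an antisense RNA overlaps the gene. VTC4, the polyphosphate synthase subunit of the vacuole, had a contrast of 0.70 ± 0.09, the glycerophosphoinositol permease GIT1 one of 0.78 ± 0.20, and PHO81, which inhibits the Pho80-Pho85 kinase, one of 0.38 ± 0.09. PHM8, a nucleotide phosphatase, was called in the contrast at 0.38 ± 0.07 through opposite signs that were not called by themselves, 0.28 under myristate and -0.10 under heat. The 1 call in the negative direction was lost on leaving out single arrays.

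**Figure D4:**
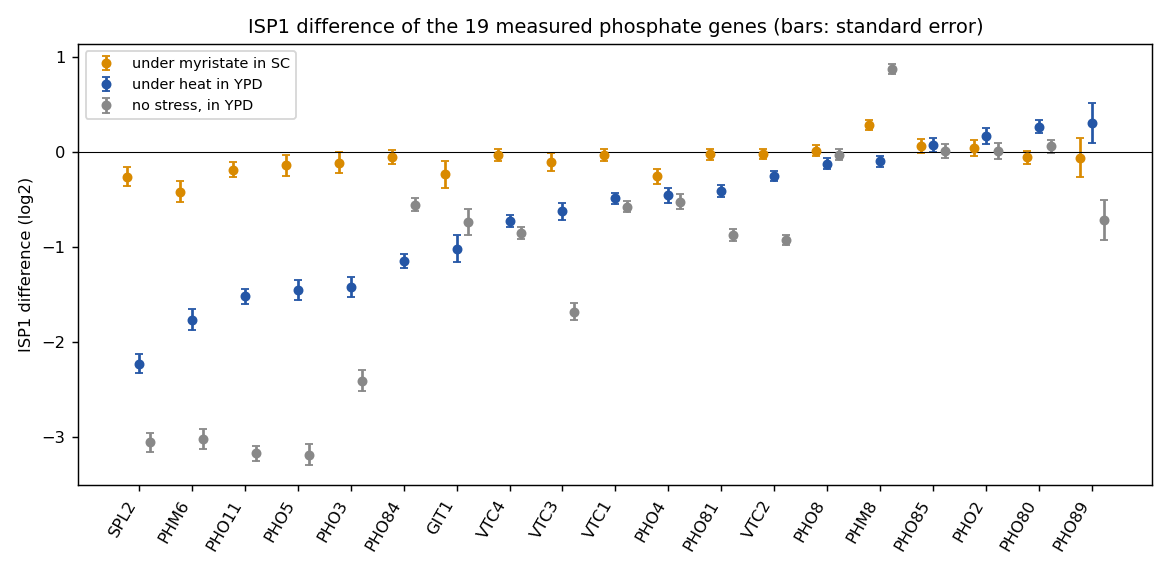
ISP1 difference (log2, with standard error) of the 19 measured phosphate genes, ordered by the value under heat, under myristate in SC, under heat in YPD and without stress in YPD. SPL2, PHM6, PHO11, PHO5 and PHO3 are below -1.4 under heat and below -2.4 without stress, and all 19 lie between -0.42 and 0.28 under myristate.

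Cell wall genes were called in both directions. Of 28 measured, 8 were called higher and 4 lower in the contrast, beside 6.06% and 5.36% of all genes. GSC2, which encodes the catalytic subunit of glucan synthase used under stress, averaged 11.38 ± 0.20 in SC+myristate+ISP1 and 11.16 ± 0.04 in SC Myristate, against 12.86 ± 0.17 in YPD+Heat+ISP1 and 11.36 ± 0.12 in YPD Heat (SD, n = 3 arrays). FKS1, the subunit used in growing cells and named here after its values were seen, averaged 13.43 ± 0.06 and 13.43 ± 0.01 in the same SC groups, against 12.32 ± 0.11 and 13.02 ± 0.08 in the same YPD groups. The contrasts were -1.28 ± 0.15 for GSC2 and 0.70 ± 0.08 for FKS1. The genes called lower also held the surface protease genes YPS1 (-0.87 ± 0.11) and YPS3 (-0.70 ± 0.16), named after their values were seen. SPS100, a spore wall gene overlapped by an antisense transcript, had a contrast of -2.09 ± 0.29, and KDX1, a pseudokinase related to the Slt2 kinase of the cell wall pathway, one of 1.23 ± 0.19.

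Of 56 measured genes of amino acid synthesis other than arginine and sulfur, 15 were called lower and 3 higher in the contrast, beside 5.36% and 6.06% of all genes, and 38 were not called. With ISP1 under heat 21 of them rose and 9 fell, beside 16.5% and 16.3% of all genes. HIS5, a histidine synthesis enzyme, read 11.15, 11.13 and 11.04 in SC+myristate+ISP1, against 11.21, 11.18 and 11.04 in SC Myristate. It read 11.62, 12.26 and 12.23 in YPD+Heat+ISP1, against 10.91, 11.07 and 11.10 in YPD Heat, where replicate 1 with ISP1 was the lowest of its group. The contrast was -1.05 ± 0.21 for HIS5 and -0.99 ± 0.17 for ARO4, which starts aromatic amino acid synthesis. The genes called higher were ARO9 (0.75 ± 0.15), of aromatic amino acid breakdown, SER2 (0.40 ± 0.10, adjusted p = 0.057 with the block), the phosphatase that makes serine, both named after their values were seen, and another whose call was lost on leaving out single arrays. Of 15 measured arginine genes 2 were called lower and none higher, 13.33% of the list, near the 11.4% of all genes called. The count was 4 without YPD+Heat+ISP1 replicate 1. The 2 were ARG7, an ornithine acetyltransferase, at -1.29 ± 0.21, and PUT1, the proline oxidase, at -1.09 ± 0.17.

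The serine deaminase gene CHA1, which breaks down the amino acid that serine palmitoyltransferase uses, had opposite signs. It read 9.58, 9.50 and 9.57 in SC+myristate+ISP1, against 9.04, 9.33 and 9.31 in SC Myristate. It read 11.98, 11.73 and 11.82 in YPD+Heat+ISP1, against 12.90, 12.92 and 12.91 in YPD Heat. Its ISP1 difference was 0.32 ± 0.08 under myristate, which was not called, and -1.07 ± 0.08 under heat, and the contrast was 1.39 ± 0.12 (limma adjusted p = 6.28e-07).

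Of 21 measured genes of purine synthesis and folate-dependent carbon transfer, 10 were called higher in the contrast and none lower, beside 6.06% and 5.36% of all genes. With ISP1 under heat 17 of the 21 fell, beside 16.3% of all genes. The list's median ISP1 difference was -0.01 under myristate and -0.34 under heat. GCV2, a subunit of the glycine cleavage enzyme, had an ISP1 difference of -0.01 ± 0.11 under myristate and -1.15 ± 0.11 under heat. The purine enzyme gene ADE17 averaged 13.47 in SC+myristate+ISP1 and 13.54 in SC Myristate, against 10.90 in YPD+Heat+ISP1 and 11.97 in YPD Heat. Its level thus also differed between the SC and YPD groups, which differ in both stress and medium. MTD1, a folate dehydrogenase, had a contrast of 0.76 ± 0.15.

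The sulfur and methionine genes had medians of opposite sign, -0.16 under myristate and 0.18 under heat, and only 1 of the 31 measured was positive under myristate. None was called under myristate, where VHR1 was the only call among all genes. In the contrast 8 were called lower and none higher, beside 5.36% of all genes. This count was 3 without SC Myristate replicate 1 or 2 or YPD+Heat+ISP1 replicate 3, and 4 without YPD Heat replicate 1, YPD+Heat+ISP1 replicate 2 or SC+myristate+ISP1 replicate 3, and 5 with the block. MET14, the kinase of sulfate assimilation, read 11.56, 11.63 and 11.66 in SC+myristate+ISP1, against 11.91, 12.04 and 11.77 in SC Myristate. It read 10.20, 10.60 and 10.62 in YPD+Heat+ISP1, against 9.58, 9.63 and 9.66 in YPD Heat. The groups did not overlap under either stress and lay in opposite orders, with a contrast of -1.14 ± 0.14 (limma adjusted p = 3.05e-05).

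In all, 20 genes were called in the contrast and under neither stress, 9 with a negative and 11 with a positive value. All had opposite signs under the pair of stresses. This is largely set by the choice, since neither difference was large enough to be called alone. On leaving out 1 array, 16 of the 20 genes lost the call for at least 1 array, among them CUR1, given below with the chaperones, and 4 kept it for each (ARO80 and MNR2 named after their values were seen). MEP3, an ammonium permease, had an ISP1 difference of 0.20 ± 0.06 under myristate and -0.16 ± 0.06 under heat. ARO80, the transcription factor of aromatic amino acid breakdown, had 0.26 ± 0.06 and -0.06 ± 0.06. MNR2, a vacuolar magnesium transporter, had 0.16 ± 0.05 and -0.13 ± 0.05, and its contrast was not called with the replicate number as a block (limma adjusted p = 0.0646). The fourth was PHM8. All 4 had positive contrasts, between 0.29 and 0.38, so their size was small beside that of the heat genes.

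Genes of myristate's own metabolism, like nearly all genes, differed little with ISP1 under myristate. Of 23 measured beta-oxidation genes 5 were called lower in the contrast and none higher, beside 5.36% and 6.06% of all genes. The count was 2 without YPD Heat replicate 2 or SC Myristate replicate 1, and 3 without YPD Heat replicate 3, YPD+Heat+ISP1 replicate 1 or SC+myristate+ISP1 replicate 1. TES1, a peroxisomal thioesterase, averaged 10.80 ± 0.07 in SC+myristate+ISP1 and 10.78 ± 0.04 in SC Myristate, against 10.89 ± 0.04 in YPD+Heat+ISP1 and 10.21 ± 0.07 in YPD Heat (SD, n = 3 arrays), and its contrast was -0.64 ± 0.08. TES1 kept its call on leaving out each array in turn, and the other 4 did not. For POX1 the contrast was -0.40 and was not called, with an interval of -1.04 to 0.24, whereas it was called with the replicate number as a block (limma adjusted p = 0.0182). Among 13 genes of fatty acid synthesis and uptake 2 were called lower and none higher, or 1 in all with the block. The 2 calls are 15.38% of the list, beside 11.4% of all genes called. The desaturase gene OLE1 had a contrast of -0.44 ± 0.08 and the importer gene FAT1 one of -0.34 ± 0.08, which was not called with the block (limma adjusted p = 0.0543), and for the acyl-CoA synthetase gene FAA1 the interval was -0.01 to 0.24.

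Of 28 measured ergosterol genes 7 were called higher and 2 lower, beside 6.06% and 5.36% of all genes, and the 9 calls became 5 with the block. CYB5, the cytochrome b5 that serves sterol and sphingolipid oxidations, had an ISP1 difference of 0.01 ± 0.09 under myristate and -1.04 ± 0.09 under heat, and the desaturase gene ERG5 had 0.07 and -0.62. UPC2, a transcription factor of sterol genes, had a contrast of -0.42 ± 0.10, and the other gene called lower was the reductase gene ERG27 (-0.33 ± 0.08), named after its values were seen. Of 25 phospholipid and inositol genes 2 were called lower, INO1, the inositol phosphate synthase, at -0.58 ± 0.11, and ITR1, the inositol transporter, at -0.45 ± 0.07. The 1 called higher was the CTP synthase gene URA7 (0.66 ± 0.16). The 3 calls are 12% of the list, near the 11.4% of all genes called in the contrast. They were 5 without YPD+Heat+ISP1 replicate 1 and 6 without SC+myristate+ISP1 replicate 3. INO1 stood at 12.52 in SC+myristate+ISP1 and 12.74 in SC Myristate, against 8.94 in YPD+Heat+ISP1 and 8.58 in YPD Heat. This is a large distance between groups that differ in both stress and medium.

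Many growth and division genes fell with ISP1 under heat. None was called under myristate, where VHR1 was the only call among all genes. Of 78 measured ribosome biogenesis genes, 59 fell under heat, beside 16.3% of all genes, and 10 were called higher in the contrast. Those 10 are 12.82% of the list, beside 6.06% of all genes called higher and 11.4% called in either direction. Single arrays weighed on these counts: the contrast count was 29 without YPD Heat replicate 1, 3 without YPD Heat replicate 2, 4 without SC+myristate+ISP1 replicate 1, and 5 without YPD Heat replicate 3, without SC Myristate replicate 1 or 2, or with the block. The count under heat was 31 without YPD+Heat+ISP1 replicate 1 and 33 without YPD Heat replicate 2. The list's median ISP1 difference was -0.08 under myristate, -0.42 under heat and -1.01 in YPD without stress. HAS1, an RNA helicase of ribosome assembly, had an ISP1 difference of -0.06 ± 0.06 under myristate and -0.76 ± 0.06 under heat.

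Of 36 measured genes of the G1/S transition and replication, 6 were called higher in the contrast, and 21 fell with ISP1 under heat. Over all genes 6.06% were called higher in the contrast and 16.3% fell under heat, which also stand beside the mitotic and daughter separation counts below. The contrast count was 12 without YPD+Heat+ISP1 replicate 1, and 3 without YPD Heat replicate 3, YPD+Heat+ISP1 replicate 3 or SC+myristate+ISP1 replicate 1, or with the block. PCL2, a cyclin of the Pho85 kinase, had a contrast of 1.12 ± 0.15, and RNR1, the large subunit of ribonucleotide reductase, one of 0.65 ± 0.11. Of 21 mitotic genes 5 were called higher: the cyclin gene CLB2 at 0.66 ± 0.14, CLB1, another mitotic cyclin gene, at 0.66 ± 0.11, the kinase gene ALK1 at 0.72 ± 0.15 and, named after their values were seen, BUD4 of bud site choice at 0.62 ± 0.14 and the kinase gene DBF2 at 0.48 ± 0.12. Of 12 genes of daughter cell separation 7 were called higher, or 2 without SC Myristate replicate 1 or YPD+Heat+ISP1 replicate 3, 3 without YPD+Heat+ISP1 replicate 2 or with the block, and 4 without YPD Heat replicate 1 or SC Myristate replicate 2. In this list AMN1, which turns off mitotic exit in daughters, had a contrast of 0.54 ± 0.12.

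In the contrast 2.78% of the measured general stress genes and 3.12% of the chaperone genes were called, beside 11.4% of all genes. Of 36 measured general stress genes controlled by Msn2 and Msn4, 1 was called in the contrast, the repressor gene XBP1, at -1.01 ± 0.19 (2 were called without SC+myristate+ISP1 replicate 2, and 3 with the block). Of 32 measured chaperone genes 1 was called, CUR1, a sorting factor for misfolded proteins, at 0.69 ± 0.18. That count was 0 without SC Myristate replicate 1 (adjusted p = 0.0543 for CUR1), 2 without YPD Heat replicate 3, without YPD+Heat+ISP1 replicate 1 or with the block, and 3 without SC+myristate+ISP1 replicate 3. HSP104, the disaggregase, had an ISP1 difference of 0.10 ± 0.07 under myristate and -0.03 ± 0.07 under heat, and CTT1, the cytosolic catalase, had 0.08 ± 0.10 and 0.12 ± 0.10. The 95% interval of the contrast was -0.07 to 0.34 for HSP104, -0.36 to 0.46 for SSA4 and -0.35 to 0.27 for CTT1. In both heat groups SSA4 averaged 14.95, HSP26 14.85 and HSP82 14.68, near the top of the array's range. A further rise there could go unseen, so the few calls do not show equal ISP1 effects for such genes. CTT1 was high in all 4 groups, at 14.15 in SC+myristate+ISP1, 14.07 in SC Myristate, 14.46 in YPD+Heat+ISP1 and 14.33 in YPD Heat, near the top of the array's range. In YPD without stress, ISP1 raised 34 of the 36 general stress genes, beside 27.9% of all genes. The list's median was 1.57 there, beside 0.05 under myristate and 0.12 under heat.

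**Figure D5:**
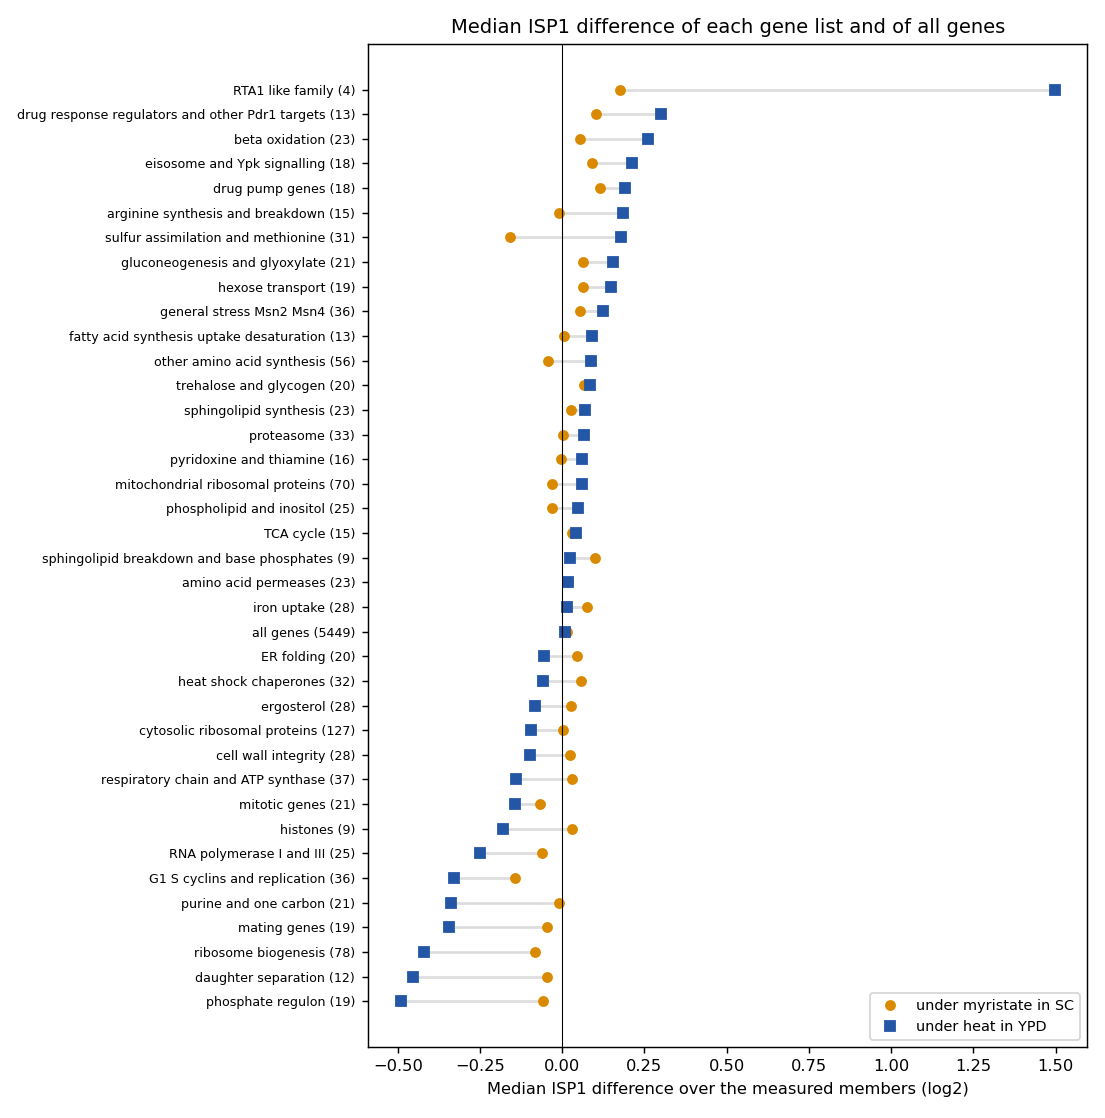
Median ISP1 difference (log2) of the measured members of each of 37 gene lists and of all genes under myristate in SC and under heat in YPD, ordered by the heat value, with the number of genes in brackets. The medians under myristate lie between -0.16 and 0.17 and those under heat between -0.49 and 1.497.

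Of the remaining 16 lists, 9 had between 13.51% and 22.22% of their measured members called in the contrast and 7 between 0% and 11.11%, beside 11.4% of all genes. Of 127 cytosolic ribosomal protein genes 6 were called higher, or 12 without YPD+Heat+ISP1 replicate 1, 3 without SC Myristate replicate 3 and 1 with the block. With ISP1 under heat 40 of them fell and 8 rose, beside 16.3% and 16.5% of all genes. These 48 calls became 25 without YPD Heat replicate 1, 30 without YPD+Heat+ISP1 replicate 3 and 31 with the block. Of 37 respiratory genes 4 were called higher, led by COX5A (0.51 ± 0.09), and 1 lower, and the 5 became 3 without YPD+Heat+ISP1 replicate 2 or with the block. Of 25 genes of RNA polymerases I and III 4 were called higher, led by RRN11 (0.86 ± 0.19), or 1 with the block or without YPD Heat replicate 2, SC Myristate replicate 1 or SC+myristate+ISP1 replicate 1, and 2 without YPD Heat replicate 3, SC Myristate replicate 2, YPD+Heat+ISP1 replicate 1 or SC+myristate+ISP1 replicate 2. Of 28 iron genes 3 were called higher, led by the permease gene FTR1 (0.86 ± 0.15), and 2 lower, among them the siderophore transporter gene ENB1 (-0.63 ± 0.13). The 5 iron calls became 3 without YPD Heat replicate 2 or 3, SC Myristate replicate 1 or 2, YPD+Heat+ISP1 replicate 2 or SC+myristate+ISP1 replicate 3.

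Of 19 hexose transport genes 2 were called higher and 1 lower, the last being HXT4 at -1.33 ± 0.25, and the 3 became 6 without YPD Heat replicate 1. Of 23 amino acid and ammonium permease genes 2 were called higher and 3 lower, the ammonium permease gene MEP1 most (-0.99 ± 0.20), and the 5 became 3 without SC Myristate replicate 1, YPD+Heat+ISP1 replicate 3 or SC+myristate+ISP1 replicate 1, and 2 with the block. Of 21 genes of gluconeogenesis and the glyoxylate cycle 1 was called higher and 2 lower, among them the lactate permease gene JEN1 (-0.91 ± 0.17). Of 16 thiamine and pyridoxine genes 1 was called higher, PHO3, and 2 lower, among them THI4 (-0.87 ± 0.22) of thiamine synthesis. Of 19 mating genes 3 were called higher, among them the cell cycle inhibitor gene FAR1 (0.98 ± 0.17), or 7 without YPD+Heat+ISP1 replicate 1 and 1 without SC+myristate+ISP1 replicate 1. Of 9 sphingolipid breakdown genes 2 were called higher, or 1 without any single array other than YPD+Heat+ISP1 replicates 2 and 3, and none without YPD+Heat+ISP1 replicate 3 or with the block. Lists of 20 trehalose and glycogen, 20 endoplasmic reticulum folding, 15 citrate cycle, 70 mitochondrial ribosomal and 9 histone genes had 1 call each, between 0 and 2 on leaving out 1 array (the histone call was lost with the block), and 33 proteasome genes had none, or 1 without YPD Heat replicate 2.

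The 12 largest contrasts in each direction were each called under heat too. The most negative of all genes was YGR035C, of no established role, with an ISP1 difference of 0.26 ± 0.22 under myristate and 2.56 ± 0.22 under heat. OSW2, a spore wall gene, had a contrast of -1.85 ± 0.24 and PRM4, a membrane protein gene induced by pheromone, one of -1.75 ± 0.24. DIA1 and BAG7 had the largest ISP1 differences under myristate of the 12 most negative genes, 0.55 ± 0.12 and 0.59 ± 0.15, neither called, beside 2.20 for each under heat, and a second gene overlaps DIA1. YHI9 (-1.59), RCR1 (-1.53), a membrane protein gene that affects chitin in the wall, and YOR385W (-1.49) completed these 12 with genes named above.

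Among the 12 most positive contrasts, YDR222W, of no established role, read 11.44, 11.53 and 11.30 in SC+myristate+ISP1, against 11.13, 11.07 and 11.13 in SC Myristate. It read 8.06, 7.85 and 7.90 in YPD+Heat+ISP1, against 8.996, 9.22 and 9.31 in YPD Heat. The arrays with ISP1 were above those without it under myristate and below them under heat, and the contrast was 1.55 ± 0.12, with only the heat difference called. The glucose transporter gene HXT1 had a contrast of 1.14 ± 0.26. The short reading frames YOR072W-B (1.64 ± 0.26) and YNL042W-B (1.24 ± 0.24) each overlap a tRNA gene, and the probe set of YOR072W-B can bind related transcripts.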

How the data were processed

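Affymetrix yeast arrays were deposited as log2 values per probe set; the authors' background correction, normalization and summary were by RMA in the affy package, per the submitters' processing notes, with no version given. Of 10928 probe sets, those of S. cerevisiae were reduced to 5449 genes, by the probe set with the highest mean where a gene had several; names came from the platform annotation and RefSeq. Groups follow the sample titles. Group means of all 21 arrays were fitted with limma 3.58.1 in R 4.3.3 (14 residual degrees of freedom), the contrasts of means were tested with eBayes, and p-values were adjusted by the Benjamini-Hochberg method over all genes at 0.05; tables and figures used Python 3.11.15, pandas 2.3.3, SciPy 1.17.1 and matplotlib 3.10.9. Precision is limited by 3 arrays per group. On simulated data with 200 genes changed, the fit of the contrast recovered 65% of changes of 0.5 and 93% of changes of 1, and 5.39% of its calls were false. The simulated arrays were independent, with the same spread on each array. Weights of the deposited arrays ran between 0.242 and 5.295, so these shares need not hold for the calls made here.

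Genes were named by a rule: the 12 largest contrasts in each direction, control genes, up to 3 members of each of 37 gene lists, and any member of the sphingolipid, RTA1-like, drug, phosphate and fatty acid lists. The comparison, the lists and the rule were chosen with earlier results of these data known. Replicate numbers come from the titles. Deviations of same-numbered YPD+Heat+ISP1 and YPD Heat arrays correlated at 0.43, 0.28 and 0.17, so the numbers may pair the heat arrays. Differently numbered arrays were not compared. The p-values and counts come from the fit without this pairing, unless another setting is named. A fit with the number as a block was an alternative. Other alternatives were the 12 arrays alone, other normalizations, a filter on dim genes, another variance prior, weights for arrays, averaged probe sets, a minimum change of 2-fold and leaving out each array. A planned search of promoter sequences was not run, since no sequence was used here.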

Additional observations from a re-analysis of the deposited data

Results flagged for a closer look

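The ISP1 difference under myristate in SC minus that under heat in YPD passed limma's test of the difference itself for 622 genes, after adjustment over 5449, and for 92 of the 102 genes given with values in the report. The values below are that difference on the log2 scale, and stress and medium cannot be told apart in any of them.

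Negative values among membrane, drug and sphingolipid genes were -2.01 for RTA1, -1.72 for RSB1, -1.61 for ICT1, -1.13 for PDR15, -1.09 for GRE2, -1.08 for IPT1, -0.94 for SUR1, -0.93 for PDR16, -0.90 for PUN1, -0.87 for PDR5, -0.73 for SNQ2, -0.72 for FHN1, -0.66 for PDR10, -0.59 for ORM2, -0.58 for YOR1 and -0.43 for YPK1. In the same groups 3 genes were positive, PDR12 with 0.91, YPK2 with 0.58 and ELO3 with 0.47.

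Phosphate genes were positive, with 1.97 for SPL2, 1.35 for PHM6, 1.33 for PHO11, 1.31 for PHO5, 1.31 for PHO3, 1.09 for PHO84, 0.78 for GIT1, 0.70 for VTC4, 0.38 for PHO81 and 0.38 for PHM8. Cell wall and spore wall genes ran both ways, with -2.09 for SPS100, -1.85 for OSW2, -1.53 for RCR1, -1.28 for GSC2, -0.87 for YPS1, -0.70 for YPS3, 0.70 for FKS1 and 1.23 for KDX1.

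In amino acid, purine and permease genes the values were -1.29 for ARG7, -1.14 for MET14, -1.09 for PUT1, -1.05 for HIS5, -0.99 for ARO4, -0.99 for MEP1, 1.39 for CHA1, 1.14 for GCV2, 1.01 for ADE17, 0.76 for MTD1, 0.75 for ARO9, 0.40 for SER2, 0.36 for MEP3 and 0.31 for ARO80. In fatty acid, sterol and phospholipid genes they were -0.64 for TES1, -0.58 for INO1, -0.45 for ITR1, -0.44 for OLE1, -0.42 for UPC2, -0.34 for FAT1, -0.33 for ERG27, 1.05 for CYB5, 0.69 for ERG5 and 0.66 for URA7.

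Growth and division genes were positive, with 1.12 for PCL2, 0.98 for FAR1, 0.86 for RRN11, 0.72 for ALK1, 0.70 for HAS1, 0.66 for CLB1, 0.66 for CLB2, 0.65 for RNR1, 0.62 for BUD4, 0.54 for AMN1 and 0.48 for DBF2. Transport and other metabolic genes had -1.33 for HXT4, -0.91 for JEN1, -0.87 for THI4, -0.63 for ENB1, 0.29 for MNR2, 0.51 for COX5A, 0.86 for FTR1 and 1.14 for HXT1.

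The rest were -2.30 for YGR035C, -1.75 for PRM4, -1.65 for DIA1, -1.61 for BAG7, -1.59 for YHI9, -1.49 for YOR385W, -1.01 for VHR1, -1.01 for XBP1, 0.69 for CUR1, 1.24 for YNL042W-B, 1.55 for YDR222W and 1.64 for YOR072W-B.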

How the results depend on the processing

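The 622 calls in the contrast ranged between 455 and 705 on leaving out each of the 12 arrays in turn, and were 1702 with limma's array weights (619 of the 622 shared) and 67 with a minimum of 2-fold. Leaving out together the 3 arrays of lowest weight, chosen after seeing the data (YPD Heat replicate 1, YPD+Heat+ISP1 replicate 1 and SC+myristate+ISP1 replicate 3), gave 822. The 1784 calls under heat ranged between 1360 and 1917 on leaving out 1 array, and were 2951 with array weights and 78 with the 2-fold minimum. The single call under myristate became 0 in a fit of only the 12 arrays, 3 with quantile normalization (VHR1, NRM1 and YDL211C), 2 with median centring (VHR1 and NRM1), 43 with array weights and 0 with the 2-fold minimum. On leaving out 1 array it ranged between 0 and 6, the highest without YPD Heat replicate 1, with 2 without SC+myristate+ISP1 replicate 1 (VHR1 and PHM8). Apart from these settings and the replicate block, given below, the settings kept all 3 counts within 1.5 times, the cause of the changes was not tested, and r across genes ranged between 0.29 without SC+myristate+ISP1 replicate 2 and 0.43 without YPD Heat replicate 1. Of the 92 named genes called in the contrast, 87 kept the call in all 21 settings, and 5 lost it in 1 or 2 of them: URA7 and SER2 in the fit of the 12 arrays, FAT1, MNR2 and SER2 with the replicate block, and CUR1 without SC Myristate replicate 1 and without the 3 arrays. No named gene changed sign in a called value.

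With the replicate number as a block, 446 genes were called in the contrast (414 of the 622 shared), 0 under myristate and 1600 under heat. Deviations of same-numbered myristate arrays correlated at -0.09, 0.11 and 0.24, mixed in sign, the highest of them above the lowest of the heat arrays (0.17). The block moved the contrast count of 14 of the 37 lists by over 1.5 times, given beside each list in the results: 12 fell, among them cytosolic ribosomal proteins to 1, against 6, ribosome biogenesis to 5, against 10, and ergosterol to 5, against 9, while general stress genes had 3, against 1, and chaperones 2, against 1. Of the named genes, POX1 was not called in the contrast and was called with the block (limma adjusted p = 0.0182). With 3 arrays per group, ISP1 differences under about 0.5 on the log2 scale can pass undetected. Transcripts near the top of the range, such as SSA4, HSP26, HSP82, CTT1 and PHO84, leave little room for a rise.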
